A study of Homo sapiens with 27 samples.

Results

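The 10 genes described here are the AP-1 subunit genes FOS, FOSB, FOSL1, FOSL2, JUN, JUNB and JUND together with EGR1, IER2 and ATF3, which belong to the immediate early genes or pair with AP-1 subunits. They were taken by symbol from the gene counts of the series, and all 10 were found among its 26485 genes. RNA-seq was performed on 4 lines of T47D, an established luminal breast cancer cell line, with 3 libraries per line. The control line carried the empty lentiviral vector, and the other lines expressed a GATA3 truncation mutant, Splice del (a deletion at the X308 splice site), C321fs or A333fs. All 4 lines were puromycin-selected stable pools, each mutant was represented by a single pool, and the wild-type GATA3 of T47D was still expressed in all of them. The study calls the 3 libraries of a line biological replicates, but the sources used here do not say that they came from separate cultures, so the p-values measure the spread between these libraries.

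AP-1 is a dimer of basic leucine zipper proteins that binds short palindromic DNA elements. Jun proteins can pair with each other, whereas Fos proteins need a Jun partner to bind DNA. Immediate early genes are transcribed within minutes of a growth factor or stress signal without new protein synthesis, and many encode unstable RNAs. In cultured cells that grow steadily their RNA is usually low, with JUND as the subunit that is least dependent on stimulation.

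The libraries held 27872208 to 36788024 counted fragments. A gene was tested when its counts passed a filter on low values, which 14789 genes and 9 of the 10 members did. FOSL1 failed it. Levels are given as CPM, counts brought to a common library size after TMM scaling. Differences are log2 fold changes of a quasi-likelihood model in edgeR, whose p-values were adjusted by the Benjamini-Hochberg method over all tested genes. A gene was called when the adjusted p was below 0.01 and the fold change exceeded 1.5, a log2 value of 0.585. Counts of GATA3 itself, which include the introduced as well as the endogenous transcript, gave 1281 ± 50.8 CPM (SD, n = 3) for control cells, against 1001 ± 45.05 (Splice del), 1142 ± 12.5 (C321fs) and 1016 ± 11.03 (A333fs) for the mutant lines. The 11 luminal markers summed to 20191 to 23442 CPM in control and 13925 to 16724 CPM in the mutant libraries, and the part of this difference in the results was not tested. Of the 11, the keratins KRT8 (3566 to 8479 CPM over all libraries), KRT19 (3472 to 6223) and KRT18 (1446 to 2938) had the widest ranges. The leukocyte marker PTPRC was at 0 in all libraries, and no KRT5 count exceeded 3.

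A trend with base composition separated the lines. The slope of a library's log2 level on the GC content of genes, per 10 percentage points of GC, was 0.153 to 0.233 in the control libraries and -0.170 to 0.0590 in the mutant libraries. Genes of 65 to 70% GC had median log2 fold changes against control of -0.28 (Splice del), -0.24 (C321fs) and -0.53 (A333fs), and genes of 35 to 40% GC had medians of 0.30, 0.32 and 0.31. Most members are GC-rich, so the comparisons are also given with the GC and length trend of each library removed, a fit to the genes outside the member and pathway lists. Replicate 1 of C321fs also stood apart from the other C321fs libraries, with a chi-square per gene of 15.3 and 26.8 against them, where the other pairs of replicates had 2.12 to 10.0.

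JUND was the most abundant of the 10 transcripts, and 2 of the 10, JUN and EGR1, were called in at least 1 mutant line, both of them lower. JUN fell in Splice del and C321fs cells, EGR1 fell in A333fs cells, and no member was called higher in any mutant line against control. The shares of all tested genes called lower were 4.53% (Splice del), 2.26% (C321fs) and 6.81% (A333fs), and 6.21%, 4.63% and 5.46% were called higher. In each line 1 of the 9 tested members was called lower. On adjusted p alone 2 members were lower with Splice del, 2 with C321fs and 6 with A333fs, against a background of 22.4%, 20.7% and 26.4% of genes, and 0 were higher, against 18.7%, 16.1% and 21.0%. By DESeq2, 0 members were called higher in each line, against 4.70%, 3.69% and 4.70% of the genes it gave an adjusted p, and 1, 1 and 0 lower, against 4.19%, 2.26% and 5.51%. At an unadjusted p under 0.05 edgeR gave 0, 1 and 0 members higher, against 29.5%, 28.4% and 30.2% of genes, and 4, 3 and 6 lower, against 29.4%, 29.4% and 33.2%. The median log2 fold change of the 9 members was -0.20 (Splice del), 0.04 (C321fs) and -0.30 (A333fs), where all tested genes had medians of 0.03, 0.02 and 0.01. The 3 comparisons share the control libraries.

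**Figure D1:**
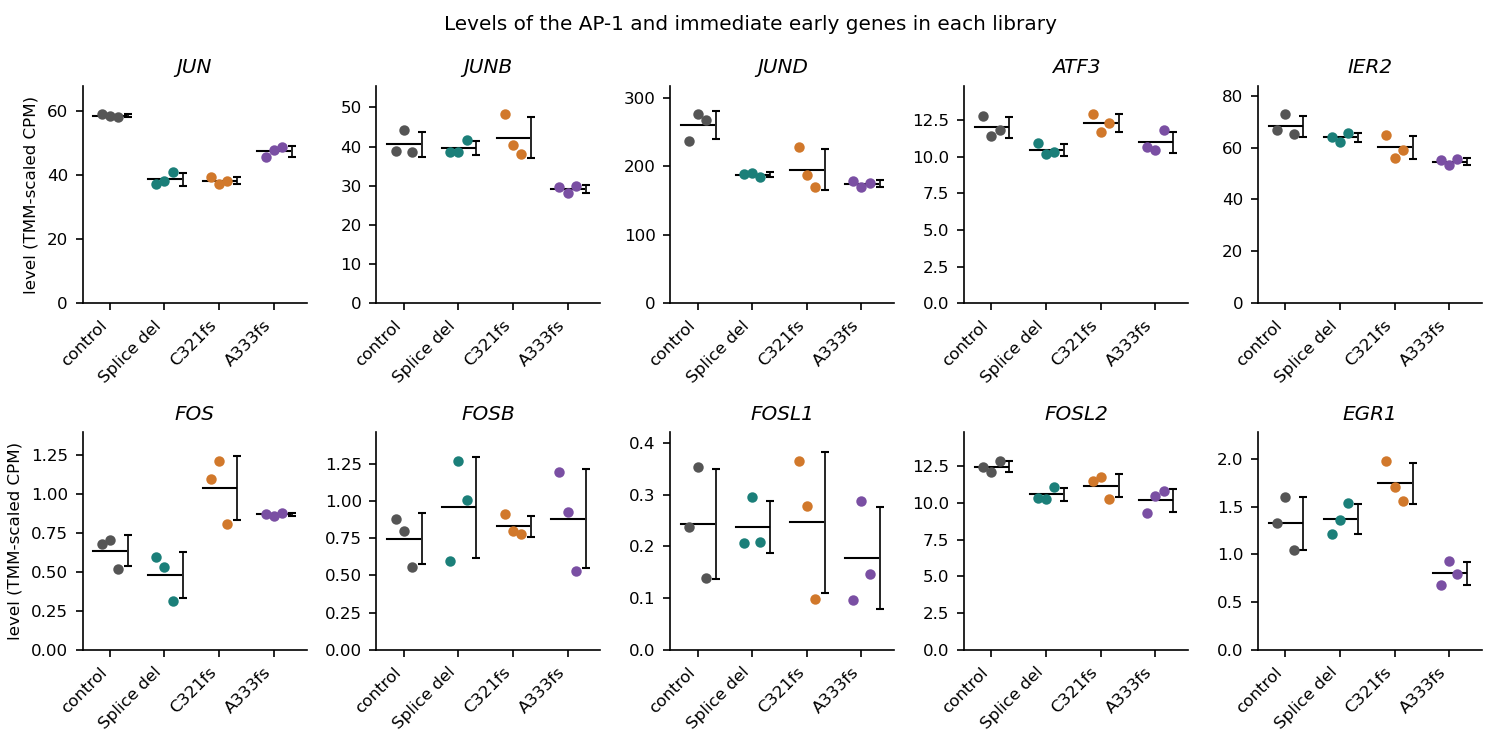
Level of each of the 10 genes in every library, in TMM-scaled CPM on axes that start at 0, with points for libraries, a line for the mean of 3 and an error bar for the SD. JUN lies at 58.1 to 58.8 CPM in the control libraries and at 37.1 to 48.8 CPM in the mutant libraries, and EGR1 is lowest in A333fs cells.

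Compared per kilobase of transcript (FPKM), control cells held JUND at 132 ± 10.5 (SD, n = 3), followed by IER2 at 33.4 ± 1.96, JUNB at 22.4 ± 1.79 and JUN at 17.6 ± 0.116. ATF3 at 4.71 ± 0.283 and FOSL2 at 3.13 ± 0.0956 formed the middle of the order. EGR1 at 0.422 ± 0.0896, FOS at 0.294 ± 0.0462, FOSB at 0.198 ± 0.0451 and FOSL1 at 0.139 ± 0.0611 came last. Only FOSB and FOSL1 overlapped among neighbours in the order of the control line. The first 6 genes kept this order in all 4 lines. At the low end the order changed, since FOS stood above EGR1 in A333fs cells at 0.404 against 0.255 FPKM, and overlapped with it in C321fs cells at 0.482 against 0.556. The RNA is from whole cultures, so fewer cells with a transcript and less transcript per cell cannot be told apart.

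JUN encodes c-Jun, the strongest activator among the Jun proteins, from a gene of 1 exon at chr1:58780791-58784113 (hg38, minus strand). The control libraries held 58.8, 58.4 and 58.1 CPM of it. Splice del libraries held 37.1, 37.9 and 41.0 CPM, C321fs libraries 39.4, 37.2 and 38.0, and A333fs libraries 45.5, 47.8 and 48.8. All 9 mutant libraries lay below the 3 control libraries, and A333fs lay between control and the other mutant lines without overlap. The log2 fold change was -0.60 (SE 0.056, adjusted p = 7.24e-07) in Splice del and -0.61 (SE 0.056, adjusted p = 1.53e-06) in C321fs cells, both called. In A333fs cells it was -0.30 (SE 0.056, adjusted p = 2.39e-04), short of the fold limit. The difference between A333fs and C321fs was itself 0.31 (adjusted p = 7.19e-04) and that between A333fs and Splice del 0.30 (adjusted p = 0.00158), whereas Splice del and C321fs differed by 0.02 (adjusted p = 0.906). With the trend removed, JUN had log2 fold changes of -0.50 in Splice del (adjusted p = 3.09e-08) and -0.50 in C321fs cells (adjusted p = 1.14e-07), short of the fold limit, and -0.10 in A333fs cells (adjusted p = 0.0956). The 2328 tested genes within 2.5 percentage points of its GC content of 56.0% had medians of -0.20, -0.20 and -0.29. Of the other scalings, RLE factors kept both calls of JUN (-0.61 in Splice del and -0.63 in C321fs cells), as DESeq2 did, whereas upper-quartile factors (-0.51 and -0.53) and library sizes alone (-0.41 and -0.45) left JUN short of the fold limit. Without Splice del replicate 1 the Splice del value was -0.57 and no longer called, and without C321fs replicate 1 the C321fs value was -0.64.

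The 2 genes whose levels followed JUN most closely over the 12 libraries were ELAC2 and GCDH, with root mean square differences of 0.0670 and 0.0772 between centred log2 CPM values. ELAC2, a tRNA-processing nuclease, had log2 fold changes of -0.52 (Splice del), -0.49 (C321fs) and -0.28 (A333fs). GCDH, a mitochondrial dehydrogenase of lysine breakdown, had -0.52, -0.50 and -0.23. Both were selected for this likeness, so their order of lines is no separate result.

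JUND, the Jun family member with the highest level, lies at chr19:18279694-18281656 (minus strand) and has the highest GC content of the 10 genes, 69.9%. The control libraries held 237, 276 and 267 CPM, those of Splice del 189, 190 and 184, those of C321fs 229, 186 and 170, and those of A333fs 178, 169 and 176. The mutant libraries all lay below the control libraries, the nearest being C321fs replicate 1. The log2 fold changes were -0.47 (SE 0.085, adjusted p = 2.58e-04), -0.41 (adjusted p = 9.42e-04) and -0.58 (adjusted p = 3.45e-05), in the order Splice del, C321fs and A333fs, each past the adjusted p and none past the fold limit. Without C321fs replicate 1 the C321fs value was -0.55 (adjusted p = 6.55e-06), and the A333fs value was called without control replicate 1 (-0.64) or without A333fs replicate 1 (-0.59). The 216 genes of like GC content had medians of -0.25, -0.23 and -0.54. With the trend removed, the values of JUND became -0.23 (adjusted p = 3.90e-04), -0.23 (adjusted p = 4.31e-04) and -0.04 (adjusted p = 0.521), so the difference seen in A333fs cells was not detectable in that fit.

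JUNB, at chr19:12791496-12793311 (plus strand), encodes a subunit that is a weaker activator than c-Jun and often opposes it. Control libraries held 38.8, 44.4 and 38.6 CPM and Splice del libraries 38.5, 38.6 and 41.6, while C321fs libraries held 48.2, 40.4 and 38.2 and A333fs libraries 29.8, 28.0 and 29.97. Only the A333fs libraries stood clear of the control libraries, at a lower level. Relative to control the log2 value for Splice del was -0.04 (adjusted p = 0.717), C321fs had one of 0.06 (adjusted p = 0.571) and A333fs one of -0.47 (adjusted p = 1.65e-04), and A333fs cells were also lower than C321fs (-0.53, adjusted p = 1.97e-04) and Splice del cells (-0.44, adjusted p = 0.00162). None of these differences reached the fold limit, except that from C321fs when C321fs replicate 3 was left out (-0.60). With the trend removed they turned to 0.18 (adjusted p = 0.00312), 0.23 (adjusted p = 6.26e-04) and -0.04 (adjusted p = 0.526) against control. The 1209 genes near its GC content of 65.0% had medians of -0.28, -0.25 and -0.50. The rank of A333fs below Splice del and C321fs was thus present in both fits, while the sides on which the lines lay relative to control were not the same.

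**Figure D2:**
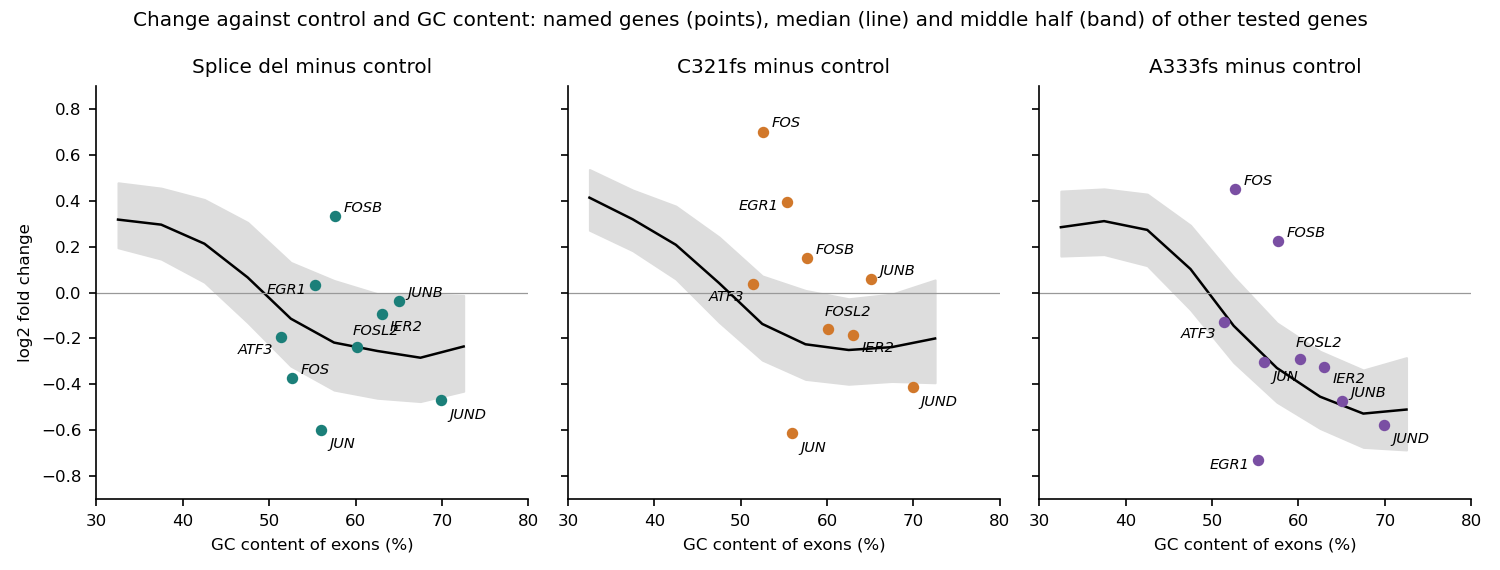
Log2 fold change against control by gene GC content of exons in percent for the 3 mutant lines, with the 9 tested members as named points, and the median (line) and interquartile range (band) of the other tested genes per bin of GC. The median falls with GC content, from about 0.30 at 35 to 40% to -0.53 at 65 to 70% in A333fs cells, and JUND and JUNB lie at the GC-rich end.

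Together the transcripts of the 3 Jun genes summed to 172 ± 11.6 FPKM (SD, n = 3) with the empty vector, 129 ± 0.304 with Splice del, 134 ± 18.6 with C321fs and 119 ± 2.83 with A333fs. JUND made up 76.8 ± 1.17% of this sum in control cells and 74.0 to 74.5% in the mutant lines. JUNB took 12.98 ± 0.703% of it in the control line, 16.9 ± 0.761% with Splice del, 17.4 ± 0.256% with C321fs and 13.5 ± 0.173% with A333fs. JUN accounted for 10.2 ± 0.762%, 9.01 ± 0.480%, 8.66 ± 0.971% and 12.0 ± 0.564%. The JUNB share was therefore higher by 3.91 points in Splice del and by 4.396 points in C321fs cells, in 3 of 3 libraries each. A two-sided exact permutation test gave p = 0.1 for both, the smallest that 3 against 3 libraries allow, and over the 21 shares tested no adjusted p was below 0.191. Once the trend was removed the JUNB share was 13.1% for control and A333fs, 17.1% for Splice del and 17.5% for C321fs, whereas the share of JUN in A333fs cells was then below that in control (10.7% against 11.1%) and the share of JUND above it (76.2% against 75.8%).

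**Figure D3:**
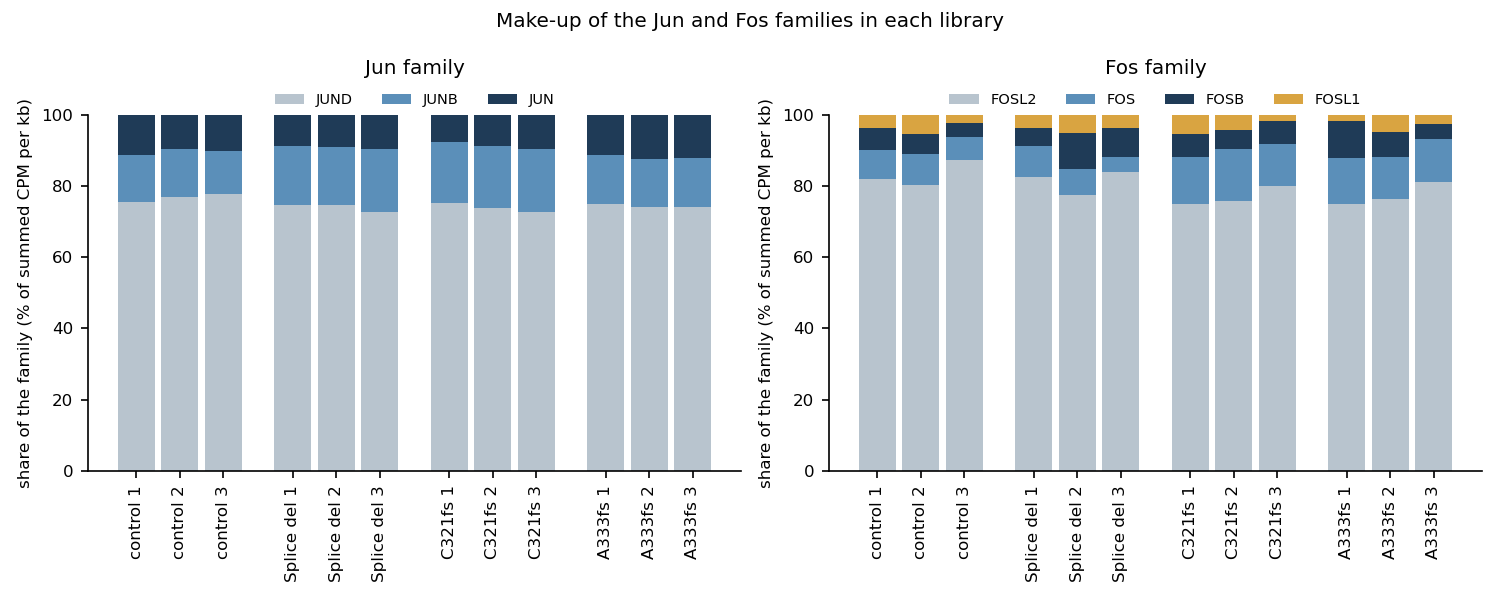
Share of each gene in the summed FPKM (CPM per kilobase) of the 3 Jun genes and of the 4 Fos genes, in percent, as 1 stacked bar per library. JUND fills most of the Jun bars, with line means of 74.0 to 76.8%, and FOSL2 most of the Fos bars, with line means of 77.1 to 83.3%.

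The Fos genes were expressed at far lower levels than the Jun genes, with summed FPKM of 3.76 ± 0.0562 (control), 3.26 ± 0.1002 (Splice del), 3.65 ± 0.373 (C321fs) and 3.29 ± 0.171 (A333fs). FOSL2, which encodes Fra-2 and lies at chr2:28392912-28414649 (plus strand), made up 83.3 ± 3.63% of the control sum. Control libraries held 12.5, 12.1 and 12.9 CPM, Splice del libraries 10.4, 10.3 and 11.1, C321fs libraries 11.5, 11.8 and 10.3, and A333fs libraries 9.29, 10.5 and 10.8. The lowest control library was above the highest mutant library by a narrow margin. The log2 fold changes were -0.24 (adjusted p = 0.0211), -0.16 (adjusted p = 0.120) and -0.29 (adjusted p = 0.00629), and with the trend removed they were -0.09, 0.02 and 0.05. FOSL2, JUN and JUND were the 3 of 9 tested members with all 9 mutant libraries below control, and 0 had all 9 above. Among all tested genes 19.3% lay entirely below and 15.7% entirely above. In the fit without the trend JUN was the 1 member on that side, where 20.3% of genes lay.

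FOS, the founding Fos gene (chr14:75278778-75282234, plus strand), was counted 9 to 36 times per library, so its raw counts are given. Control libraries held 20, 22 and 15 fragments, Splice del libraries 23, 18 and 9, C321fs libraries 36, 35 and 25, and A333fs libraries 27, 27 and 30. The C321fs libraries held 0.810 to 1.21 CPM and the Splice del libraries 0.313 to 0.593 CPM, without overlap. The difference between these 2 mutant lines was called, with Splice del lower by a log2 value of -1.07 (SE 0.252, adjusted p = 0.00978). In that comparison 0.879% of tested genes were called lower and 1.76% higher, and FOS was the 1 member called. Against control FOS had log2 fold changes of -0.37 (adjusted p = 0.275), 0.70 (SE 0.246, adjusted p = 0.0257) and 0.45 (adjusted p = 0.137), none of which passed the test. FOS took 7.82 ± 1.13% of the Fos sum in the control line, 6.84 ± 2.23% with Splice del, 13.1 ± 1.42% with C321fs and 12.3 ± 0.700% with A333fs. The FOS shares of the C321fs libraries lay above those of all control libraries, as did those of A333fs, with p = 0.1 in the exact permutation test, the smallest it could give. DESeq2 did not call the difference between Splice del and C321fs, and of the 6 fits that each left out 1 of their libraries 1 called it, with values of -1.26 to -0.87.

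FOSB and FOSL1, the other Fos family subunits, were measured at the low end of the counts. FOSB (chr19:45467995-45475179, plus strand) was at 0.556 to 0.882 CPM in control libraries and between 0.528 and 1.27 CPM in the mutant libraries, with overlap of every line. Its log2 fold changes of 0.33, 0.15 and 0.22 had adjusted p of 0.394, 0.724 and 0.576. FOSL1, which encodes Fra-1 (chr11:65892136-65900526, minus strand), gave 7, 11 and 4 fragments in control libraries, and 8, 10 and 6 (Splice del), 12, 8 and 3 (C321fs) and 3, 9 and 5 (A333fs) in the mutant libraries. In the fit without a filter its log2 fold changes were -0.05, 0.01 and -0.44 (adjusted p = 1, 1 and 0.586). No difference in either gene passed the test.

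EGR1, a zinc finger transcription factor whose promoter responds to the serum response factor SRF, lies at chr5:138465492-138469315 (plus strand). Control libraries held 39, 50 and 30 fragments of it, Splice del libraries 47, 46 and 44, C321fs libraries 65, 49 and 48, and A333fs libraries 21, 29 and 27. A333fs libraries held 0.678 to 0.925 CPM, below all control libraries (1.04 to 1.603) and all C321fs libraries (1.56 to 1.98). EGR1 fell in A333fs cells by a log2 value of -0.73 (SE 0.217, adjusted p = 0.00865). The values in Splice del and C321fs cells were 0.03 (adjusted p = 0.903) and 0.40 (adjusted p = 0.0937). The difference between A333fs and C321fs cells was the greater, -1.13 (SE 0.206, adjusted p = 7.87e-04), and was called, while that between A333fs and Splice del was -0.76 (adjusted p = 0.0170). EGR1 was the 1 member called between A333fs and C321fs, where 3.08% of tested genes were called lower and 2.47% higher. Between A333fs and Splice del 0 members were called in edgeR, against 1.97% of genes lower and 1.03% higher, and 0 in DESeq2, against 1.63% and 0.971%. At an unadjusted p under 0.05 EGR1, JUNB and IER2 were lower there, as were 2959 of the 14789 tested genes, and JUN and FOS higher, as were 2360 of them.

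The EGR1 call in A333fs against control rested on the margin of its adjusted p. It was called in 1 of the 6 fits that left out a library of either line, that without control replicate 3, with log2 values of -0.87 to -0.57 over the 6. DESeq2 gave an adjusted p of 0.0246, the replicate block -0.72 with 0.0127, and the fit with the trend removed -0.55 with 0.0472. The difference from C321fs was called in 6 of 6 such fits. The genes that followed EGR1 most closely over the 12 libraries were P3H3, a collagen prolyl hydroxylase (root mean square difference 0.140, log2 fold changes 0.09, 0.50 and -0.81), and MNX1, a homeobox gene (root mean square difference 0.163, log2 fold changes -0.11, 0.28 and -0.65).

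IER2, an immediate early gene for a nuclear protein (chr19:13150468-13154904, plus strand), was the second most abundant member per length. Control libraries held 66.8, 72.8 and 65.1 CPM and Splice del libraries 64.1, 62.1 and 65.7, while C321fs libraries held 64.9, 56.1 and 59.1 and A333fs libraries 55.0, 53.2 and 55.5. The highest A333fs library was below every library of the other lines. The log2 fold change was -0.32 (adjusted p = 3.94e-04) in A333fs cells, short of the fold limit, with -0.09 (adjusted p = 0.216) and -0.19 (adjusted p = 0.0219) in Splice del and C321fs cells. Without C321fs replicate 1 the C321fs value was -0.25 (adjusted p = 0.00212). Removal of the trend left values of 0.10, -0.02 and 0.07, and genes near its GC content of 63.0% had medians of -0.25, -0.25 and -0.46. ATF3, a stress-induced factor of the ATF/CREB family that pairs with Jun proteins (chr1:212565334-212620777, plus strand), ranged from 11.4 to 12.8 CPM in control libraries, and in the mutant libraries from 10.2 to 10.9 (Splice del), 11.7 to 12.9 (C321fs) and 10.5 to 11.8 (A333fs). Its log2 fold changes were -0.20 (adjusted p = 0.0490), 0.04 (adjusted p = 0.719) and -0.13 (adjusted p = 0.183).

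**Figure D4:**
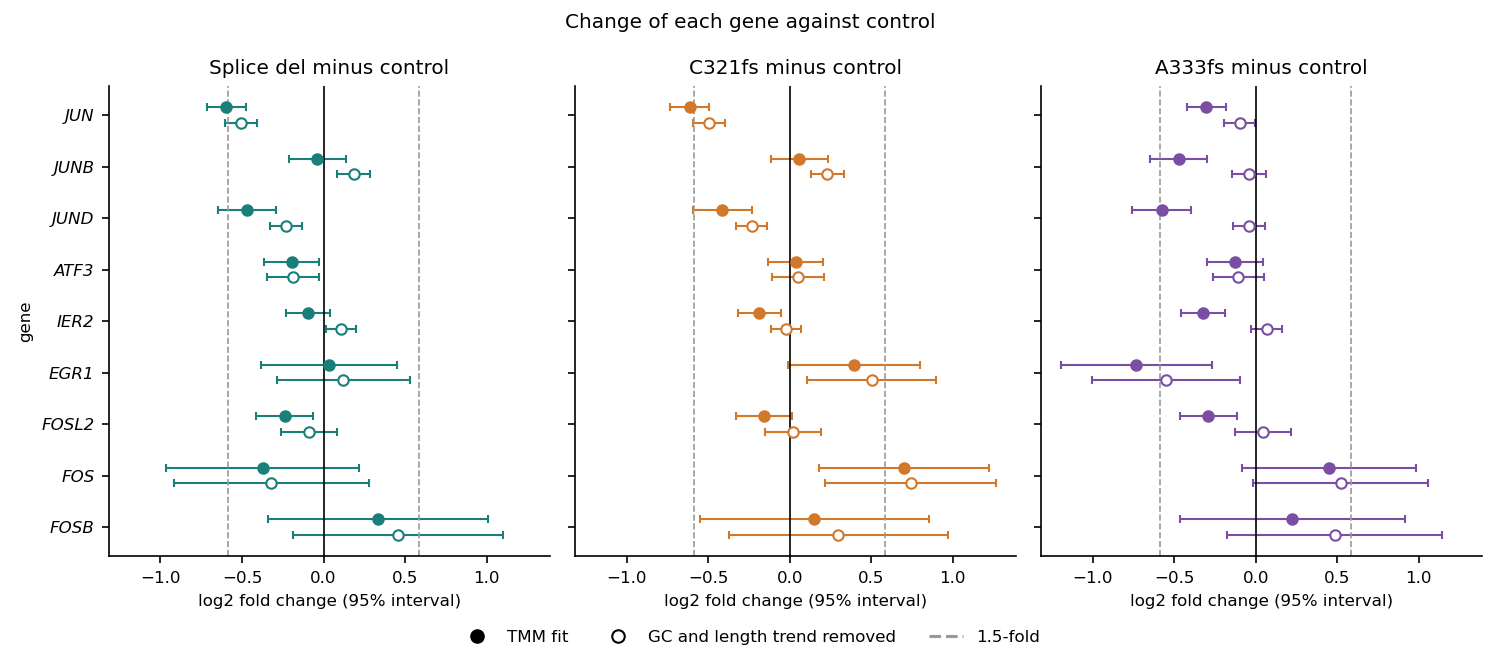
Log2 fold change of the 9 tested members against control in the 3 mutant lines with its 95% interval, before (filled) and after (open) removal of the GC and length trend. The dashed lines mark the fold limit of 0.585, JUN in Splice del and C321fs and EGR1 in A333fs cells lie past it and past the adjusted p before removal, and no member lies past both limits after it.

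When the 4 lines were compared in a single F-test, 6 of the 9 tested members had an adjusted p below 0.01, where 56.2% of all tested genes did. The values were 5.15e-07 for JUN, 9.80e-05 for JUND, 1.68e-04 for JUNB, 0.00151 for EGR1, 0.00192 for IER2 and 0.00594 for FOS. FOSL2 (0.0222), ATF3 (0.0477) and FOSB (0.784) did not pass. Without the trend 5 passed, where 51.8% of all tested genes did, and IER2 was the one that no longer did (0.0560).

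The promoters of JUN, ATF3, JUND, FOSL2 and EGR1 are shown because each held a DNA element read by AP-1, ATF/CREB or SRF proteins. The element lay within the 300 bases around a RefSeq start site (GRCh38.p14, 250 bases before to 50 after). Windows were available for 9 of the 10 members, and FOSL1 was not searched. The searched letters were TGANTCA, with any base at N, as a wide form of the AP-1 site, and TGACGTCA for the cAMP response element. Its variant TGACATCA, the CArG box of SRF by its consensus, and AGATAA and TGATAA for GATA sites were also searched. Both strands were searched. The capitals mark the match, and the sequences read along the strand of the gene:
JUN promoter, chr1:58784096-58784125, minus strand: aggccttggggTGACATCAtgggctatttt
ATF3 promoter, chr1:212565273-212565302, plus strand: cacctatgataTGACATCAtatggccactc
JUND promoter, chr19:18281804-18281833, minus strand: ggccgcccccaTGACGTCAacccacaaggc
FOSL2 start region, chr2:28392851-28392880, plus strand: tgccattgtagTGACTCAtctcgggcagag
EGR1 promoter, chr5:138465359-138465418, plus strand: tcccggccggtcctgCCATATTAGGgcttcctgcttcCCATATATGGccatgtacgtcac

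JUN and ATF3 carried the same 8 letters, at bases -67 to -60 and -123 to -116 from the start site. The ATF3 match belonged to the start site chr1:212565407, and the window of its other start site, chr1:212615018, held none of the searched elements. JUN was called lower in Splice del and C321fs cells, and ATF3 was not called in any line. A part of the element in this was not tested. The variant was present in 2.61% of the 35116 windows searched. The JUND match lay at bases -200 to -193, and its letters were in 1.85% of windows. The FOSL2 match, TGACTCA, lay 5 to 11 bases after the start, and TGANTCA with any base at N was in 7.71% of windows. The share of windows with TGACTCA itself is not given here. EGR1 was the 1 member with a CArG box, which 1.29% of windows held, and it had 2 of them between bases -105 and -74. JUN also held AGATAA at bases -30 to -25, a match found in 10.3% of windows, and TGATAA, in 7.53% of windows, was in no member's window. No match overlapped another. These are matches of letters, and binding at them was not analysed here. The RefSeq start sites are not the ends of the counted gene models. For JUN the start site is chr1:58784047 and the counted model reaches chr1:58784113, so its TGACATCA match overlaps the counted exon. For FOSL2 the start site is chr2:28392858 and the counted model begins at chr2:28392912, so its match lies before the counted gene.

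The other genes of the pathway were described from 4 lists. Among all tested genes 6.21% (Splice del), 4.63% (C321fs) and 5.46% (A333fs) were called higher against control, and 4.53%, 2.26% and 6.81% lower. Of 41 other immediate early genes 38 were tested, and 2, 1 and 4 were called higher and 8, 3 and 11 lower, again in the order Splice del, C321fs and A333fs, with medians of -0.12, -0.04 and -0.21. Removal of the trend left 4, 1 and 4 higher and 5, 1 and 5 lower, upper-quartile factors 4, 1 and 4 higher and 3, 1 and 6 lower, and library sizes alone 5, 1 and 5 higher and 2, 0 and 5 lower. The list thus had no more lower than higher calls under library sizes alone, where the share of higher calls among all called genes went from 57.8, 67.2 and 44.5% to 92.2, 93.2 and 80.2%. The shares of all tested genes called under these other settings are not given here. Of 22 other AP-1 and related basic leucine zipper genes 21 were tested, and 1, 1 and 1 were called higher and 0 lower by edgeR, with 7, 4 and 5 lower at an unadjusted p under 0.05, where 29.4%, 29.4% and 33.2% of all genes were, and medians of 0.01, 0.00 and 0.00. Of 28 upstream kinases and SRF-linked factors 26 were tested, with 2, 2 and 3 called higher and 2, 1 and 5 lower and medians of -0.12, -0.11 and -0.29. Of 30 textbook AP-1 target genes 21 were tested, with 3, 4 and 4 higher, 2, 1 and 1 lower and medians of 0.08, 0.13 and -0.01.

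Among the immediate early genes, MYC, a growth regulator, fell in all 3 mutant lines. Control libraries held 123 to 138 CPM, whereas the mutant libraries held 61.7 to 65.7 (Splice del), 80.1 to 82.5 (C321fs) and 67.1 to 68.4 (A333fs), without overlap with control. Its log2 fold changes were -1.02 (SE 0.055, adjusted p = 2.13e-09), -0.66 (adjusted p = 6.47e-07) and -0.92 (adjusted p = 4.60e-09), and with the trend removed -0.95, -0.58 and -0.80, of which the C321fs value was just short of the fold limit. IER3, a stress-response gene, also fell in all 3, by log2 values of -0.61, -0.65 and -0.60. It was short of the fold limit in all 3 without the trend (-0.50, -0.45 and -0.34) and in at least 1 fit that left out a library in each line. DUSP4, a phosphatase that inactivates MAP kinases, fell in Splice del (-0.59) and most in A333fs cells (-1.32), from 133 to 136 CPM in control to 53.3 to 55.0 in A333fs libraries. PLK2, a polo-like kinase, fell in Splice del cells (-0.94) and was higher in C321fs cells (0.38, adjusted p = 3.97e-05), short of the fold limit. CYR61, a secreted matrix protein, fell in Splice del (-0.72) and C321fs cells (-0.72). The CYR61 value in A333fs cells (-0.49, adjusted p = 1.48e-05) was short of the fold limit.

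Other immediate early genes rose. BTG2, an antiproliferative gene, rose in Splice del (0.74) and A333fs cells (1.00), from a mean of 21.8 CPM to 36.6 and 43.6 CPM. EGR3, an EGR1 relative, rose in C321fs cells by a log2 value of 2.51 (SE 0.308, adjusted p = 1.56e-05), from 12, 9 and 3 fragments in control to 44, 48 and 51. A333fs libraries held 6, 8 and 7 EGR3 fragments and Splice del libraries 18, 22 and 22, so the C321fs libraries were above all the others. ZFP36L2, an RNA decay factor, fell in Splice del (-0.66) and A333fs cells (-0.71), and IER5L, another immediate early gene, fell in the same lines (-0.66 and -1.09). ZFP36L2 in A333fs (-0.57) and IER5L in Splice del cells (-0.46) were short of the fold limit without the trend.

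**Figure D5:**
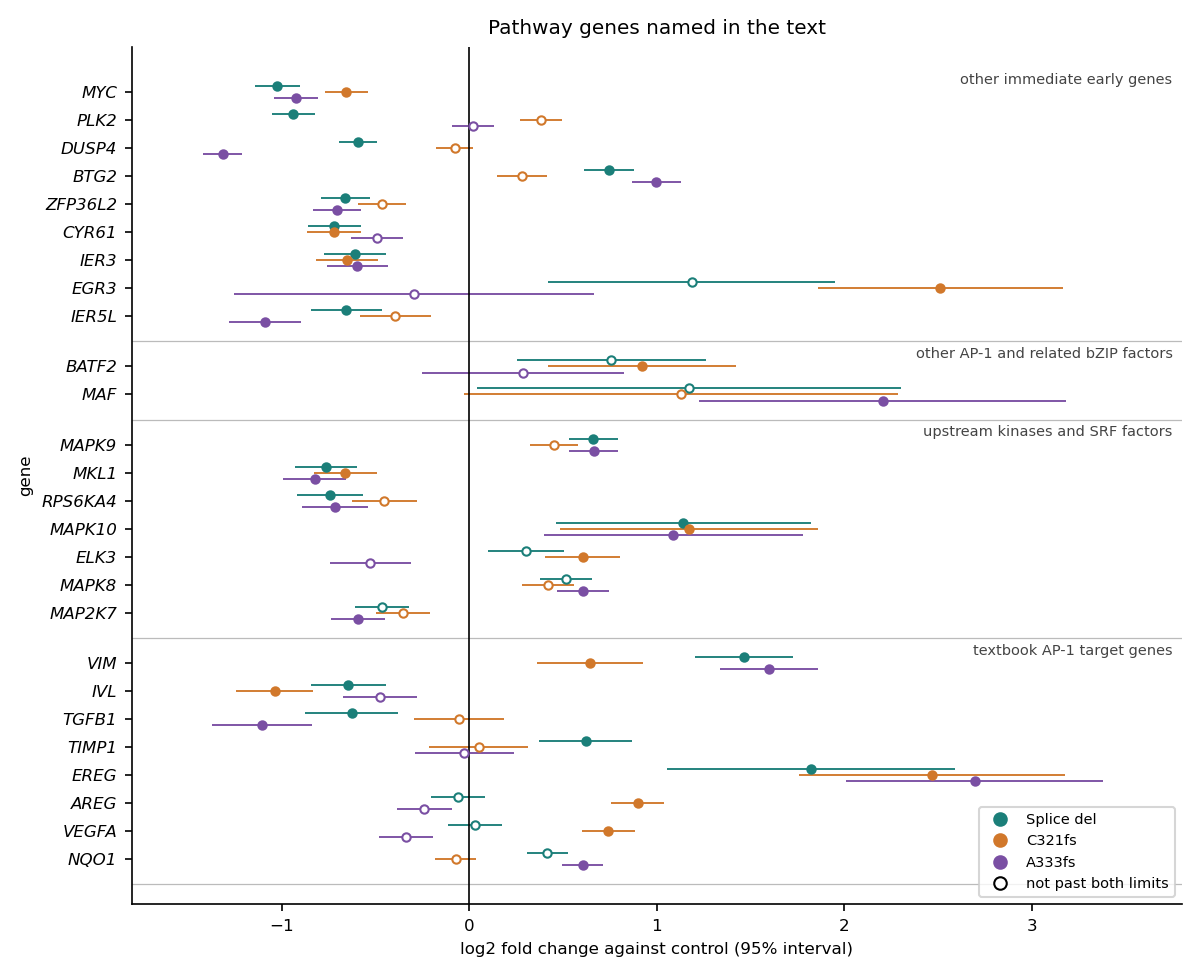
Log2 fold change against control in the 3 mutant lines for the named genes of the 4 pathway lists. MYC and IER3 lie below 0 in all 3 lines, VIM and EREG lie above 0 in all 3, and EGR3 is high in C321fs cells.

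Among the other basic leucine zipper genes BATF2 rose in C321fs cells (0.92) and MAF in A333fs cells (2.20, from 5, 2 and 3 fragments to 18, 17 and 16). DESeq2 did not call BATF2, nor did 4 of the 6 fits that left out a C321fs or control library. Of the upstream factors, MKL1, a coactivator of SRF, fell in all 3 lines (-0.76, -0.66 and -0.82), and MAPK10, a JNK kinase, rose in all 3 (1.14, 1.17 and 1.09) from control counts of 7, 9 and 10. MKL1 in C321fs (-0.47) and A333fs cells (-0.47) was short of the fold limit without the trend, and MAPK10 was called in no line by DESeq2 or without the trend, with adjusted p of 0.0278 to 0.0608 in the latter. MAPK9, another JNK kinase, rose in Splice del (0.66) and A333fs cells (0.66), and RPS6KA4, a kinase that phosphorylates CREB and histones, fell in both (-0.74 and -0.72). Without the trend these values were 0.37 and 0.37 for MAPK9 and -0.55 and -0.26 for RPS6KA4, all short of the fold limit. In A333fs cells MAPK8, a JNK kinase too, rose (0.61) and MAP2K7, a kinase that activates JNK, fell (-0.59), and in C321fs cells ELK3, a ternary complex factor of SRF, rose (0.60). None of these 3 calls was kept without the trend (0.29, -0.18 and 0.38). After removal of the trend 0 genes of this list were called higher in each line by edgeR. The share of all tested genes called higher in that fit is not given here, so this count is not read as a result about the list.

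The textbook AP-1 targets included members that rose in all mutant lines and others that fell. VIM, the intermediate filament vimentin, went from 2.61 to 3.47 CPM in control libraries to 8.22 to 8.57 (Splice del), 4.17 to 5.17 (C321fs) and 8.25 to 10.4 (A333fs), log2 fold changes of 1.46, 0.64 and 1.598. The C321fs value was short of the fold limit without control replicate 1 (0.55) or C321fs replicate 2 (0.57). EREG, the growth factor epiregulin, rose by 1.82, 2.47 and 2.69 from control counts of 6, 7 and 3. IVL, the keratinocyte protein involucrin, fell in Splice del (-0.65) and C321fs cells (-1.04), and TGFB1, a secreted cytokine, fell in A333fs cells (-1.11) and in Splice del cells (-0.63). The Splice del values of IVL (-0.49) and TGFB1 (-0.42) were short of the fold limit without the trend. AREG, the growth factor amphiregulin (0.90, from a mean of 19.9 to 37.1 CPM), and VEGFA, an angiogenic factor (0.74), rose in C321fs cells. TIMP1, a metalloproteinase inhibitor, rose in Splice del cells (0.62, and 0.57 or 0.56 without control replicate 1 or 3), and NQO1, a detoxifying reductase, rose in A333fs cells (0.61, and 0.35 without the trend). CCL2, a chemokine, was at 0 in all control libraries and gave 34, 27 and 24 fragments in A333fs libraries, at least 8.81-fold higher against a floor of 3 counts per library. The A333fs libraries also had the highest sum of 6 basal or myoepithelial markers, 26.4 to 29.2 CPM against 16.96 to 19.0 in control, and a lower sum of 6 fibroblast markers, 29.7 to 33.5 against 53.2 to 65.0. Over all libraries ACTA2 (11.8 to 21.0 CPM) and MYLK (3.44 to 6.87) made up most of the first sum. KRT5, KRT14, KRT17 and TP63 each reached at most 0.798 CPM. COL1A1 (27.97 to 59.8 CPM) made up most of the second sum, so neither sum stands for its whole list. The part of these markers in the values above was not tested.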

How the data were processed

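RNA-seq of 12 libraries, 3 per line, was used, and the ChIP-seq samples of the series were not analysed here. RNA was extracted with a column kit, libraries were made with NEBNext Ultra II, pooled and sequenced as paired-end reads in a single NovaSeq lane, and the authors trimmed the reads with Trimmomatic and aligned them to hg38. The authors deposited raw counts of read pairs per gene, made by featureCounts 1.6.4 per the file headers without use of strand. The aligner is named differently in the sources used here, and the labels and the methods name different culture media. Counts of a gene that overlaps another on either strand cannot be split, which concerns none of the 10 genes. The precision of a value is set by the counted fragments, 27872208 to 36788024 per library.

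Counts were analysed in R 4.3.3 with edgeR 4.0.16. Genes were filtered by line with filterByExpr, scaled by TMM and fitted by the quasi-likelihood model with all 4 lines, which share one estimate of the spread, and p-values were adjusted over the 14789 tested genes. Genes were called at an adjusted p below 0.01 and a fold change above 1.5, limits given in the study's results text (a figure legend of the study gives an adjusted p of 0.05), where DESeq2 was applied. DESeq2 1.42.0 was an alternative. The GC and length trend was removed as a loess offset (span 0.3) per library, fitted without the members and list genes. Shares of a family were compared by two-sided exact permutation tests. Samples were grouped by the labels alone. Same-numbered libraries of different lines did not deviate together (mean correlation -0.0092 over 18 pairs), so the fit with a replicate block is an alternative. Counts simulated for C321fs against control on 14613 genes had 200 genes set to a 2-fold change, of which 88% were called, beside 0 of the unchanged genes. The simulation gave all genes the same dispersion and no GC trend. It therefore does not show how many calls in the measured data are false.

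The members, gene lists and tests were chosen with earlier results of these data known. Named list genes were those called against control, at most 5 per list and line by smallest adjusted p, and the results of 1 of them are not reported here. Genes like a member were those with the smallest root mean square difference of centred log2 CPM (prior count 2), for members called against control. GC content was read over the exons listed with the counts from hg38 with pysam 0.24.0 (Python 3.11.15). Promoter windows came from RefSeq GRCh38.p14, and those of the members matched hg38. FPKM is CPM per kilobase of exon.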

Additional observations from a re-analysis of the deposited data

Results flagged for a closer look

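Of the members, EGR1 and FOS were each called between mutant lines by the test of the difference itself, EGR1 by a log2 value of -1.13 for A333fs minus C321fs and FOS by -1.07 for Splice del minus C321fs. The libraries of the lines did not overlap in either case or in any of the genes that follow. The FOS difference rested on 9 to 36 fragments per library, was not called by DESeq2 and was called in 1 of 6 fits that left out a library. JUN (0.31 and 0.30) and JUNB (-0.53 and -0.44) also passed the adjusted p for A333fs minus C321fs and minus Splice del, short of the fold limit.

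Among the named genes of the pathway lists, AREG was lower in A333fs (-1.14) and Splice del (-0.96) than in C321fs cells, and VEGFA was lower in both as well (-1.08 and -0.71). EGR3 was lower in A333fs than in C321fs (-2.81) and Splice del cells (-1.48), and lower in Splice del than in C321fs cells (-1.33). DUSP4 was lower in A333fs than in C321fs (-1.24) and Splice del cells (-0.72), and ELK3, a ternary complex factor of SRF, followed the same order (-1.13 and -0.83).

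For A333fs minus C321fs, IER5L differed by -0.70, TGFB1 by -1.05, BTG2 by 0.72, NQO1, a detoxifying reductase, by 0.68 and VIM by 0.96. For Splice del minus C321fs, VIM differed by 0.82 and PLK2 by -1.32. For A333fs minus Splice del, PLK2 differed by 0.96 and TIMP1, a metalloproteinase inhibitor, by -0.65. CCL2 gave fitted log2 values of 4.61 for A333fs minus C321fs and 3.81 for A333fs minus Splice del, which depend on the prior count because the lower lines held 0 to 3 fragments per library.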

How the results depend on the processing

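The values against control moved with the scaling. All genes had a median log2 fold change of 0.12, 0.11 and 0.12 (Splice del, C321fs, A333fs) under upper-quartile factors and 0.22, 0.19 and 0.16 under library sizes alone, and the share of calls that were higher went from 57.8, 67.2 and 44.5% to 79.1, 86.3 and 73.7%, to 92.2, 93.2 and 80.2%, and after removal of the GC and length trend to 65.7, 71.5 and 71.8%. The members called lower against control, 1 in each line, became 0 in each line under upper-quartile factors, library sizes alone, the trend removed, and the replicate block with the trend removed. In A333fs cells they were also 0 without a filter, with the libraries of each pair alone, by DESeq2 and with the replicate block, and in Splice del cells 0 with at least 10 counts in every library. With no minimum fold they were 2, 2 and 6, against 22.4%, 20.7% and 26.4% of all tested genes. Under library sizes alone and at an adjusted p below 0.05, 1 member (FOS) was called higher in C321fs cells. For A333fs minus C321fs, no minimum fold gave 1 higher and 2 lower. For A333fs minus Splice del it gave 1 higher and 1 lower, an adjusted p below 0.05 gave 1 and 1, and library sizes alone gave 1 lower. For Splice del minus C321fs the 1 lower call became 0 under library sizes alone, each pair alone and DESeq2, and 0 with at least 10 counts, a filter that left FOS untested. The 3 members with all mutant libraries below control became 1 under library sizes alone and with the trend removed. Leaving out 1 library gave 0 to 1 lower in Splice del and A333fs cells, 0 to 1 for Splice del minus C321fs and 1 to 2 for A333fs minus C321fs. For most of these settings the share of all genes called is not given here, so the counts are not read as results about the members. Removing the trend, with or without the replicate block, turned the sign of FOSL2 (0.047 and 0.046) and IER2 (0.067 and 0.066) in A333fs cells, of JUNB in Splice del cells (0.18), of JUND for A333fs minus C321fs (0.19) and minus Splice del (0.19), and of PLK2 in A333fs cells (-0.18). The replicate block alone changed the call of 1 member, EGR1 in A333fs cells (-0.72, adjusted p = 0.0127), and gave 1561, 999 and 1808 calls against control where 1588, 1018 and 1815 were found without it. The causes of these changes were not tested, the smaller number of libraries or genes in some fits among them. Depth limits the precision of FOS, FOSB, FOSL1 and EGR1, at 3 to 65 fragments per library.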
